A study of Homo sapiens with 9 samples.

Results

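The TRIM genes encode the tripartite motif proteins, a family built from a RING finger, 1 or 2 B-box zinc fingers and a coiled coil, followed in most members by a domain that chooses the target. Members were the rows of the count table whose identifier maps to a protein-coding gene with the symbol TRIM, a number and at most 1 letter. Pseudogenes, antisense genes and read-through genes were left out. The rule gave 74 genes of the 60708 in the table, and 48 of them passed the filter on low counts, among 20812 genes that did. The cells were MDA-MB-231, an established human line of triple-negative breast cancer, the kind without oestrogen and progesterone receptors or HER2 amplification. The 9 libraries made 3 groups of 3. The recovery group was exposed to pladienolide B (PdB), taken here as 10 nM for 16 h, and collected 24 h after it. The PdB group received 10 nM for 16 h, and the DMSO group was the vehicle control. The labels give no collection time for DMSO and name no separate vehicle group for recovery. In recovery against DMSO, recovery from the drug and longer time in culture cannot be told apart. PdB binds the SF3B1 complex, which recognises the branch point of introns, and blocks splicing. All 3 groups came from 1 cell line, and the labels do not say that replicates were separate cultures, so p-values reflect the scatter of these samples alone, part or all of which may be technical.

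Most TRIM proteins act as the last enzyme of the ubiquitin cascade: the RING finger brings an E2 enzyme charged with ubiquitin to a target held by the C-terminal domain, and the coiled coil pairs the protein with itself or a relative. Many members with a B30.2/SPRY domain take part in antiviral defence and are induced by interferon. Members with a PHD finger and a bromodomain act on transcription at chromatin, and some of them read histone marks. The label of the family as ubiquitin ligases does not hold for every gene: TRIM14, TRIM16, TRIM16L, TRIM29, TRIM44 and TRIM66 are known to lack a RING finger.

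Total counts ranged from 57799058 to 62020549 at recovery, from 56389689 to 64022867 under PdB and from 61734210 to 67047079 in DMSO. Levels are given as CPM, counts scaled to the size of the library with TMM factors, as mean ± SD over 3 libraries, and log2 changes ± SE. The cell line markers VIM, CD44 and AXL were high in every group, with VIM at 1094 ± 13.5 CPM at recovery, 2162 ± 135 CPM under PdB and 2871 ± 51.8 CPM in DMSO. Against DMSO all 3 fell under PdB (median log2 change -0.41) and at recovery (median -1.31), where 38.2% and 30.5% of all genes fell. ESR1 had 0 counts in the 9 libraries, PGR averaged at most 0.0251 CPM, and the leukocyte marker PTPRC averaged at most 0.398 CPM. The luminal marker GATA3 was measured at 22.5 ± 1.09 CPM at recovery, 45.9 ± 1.36 CPM under PdB and 13.45 ± 0.923 CPM in DMSO. Of 5 luminal and epithelial markers listed (ESR1, PGR, GATA3, CDH1 and EPCAM), 3 were tested. Under PdB 1 of them rose against DMSO and 2 did not pass the test, where 32% of all genes rose. At recovery against DMSO 2 rose and 1 fell, with log2 changes from -1.13 to 2.03, where 30.7% and 30.5% of all genes did so.

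Of the 74 TRIM genes, 12 had no count in any library: TRIM42, TRIM43B, TRIM48, TRIM49B, TRIM49C, TRIM51, TRIM51G, TRIM64, TRIM64B, TRIM64C, TRIM75 and TRIM77. A further 14 were not tested, with 1 to 59 counts over the 9 libraries, among them the muscle ligases TRIM55 and TRIM63 and the stem cell ligase TRIM71. A count of 0 allows a level of up to 3 counts, 0.0433 to 0.0576 CPM by library, and covers counting error only. Of the 48 genes tested, 45 averaged at least 10 counts in every group, and TRIM9, TRIM54 and TRIM72 did not. Summed over the family, TRIM RNA made up 2457 ± 40.04 CPM at recovery, 2138 ± 70.5 CPM under PdB and 2180 ± 6.81 CPM in DMSO. In bulk RNA, fewer cells with a transcript and less of it per cell cannot be told apart. Counts are per gene, so spliced and unspliced RNA of a gene cannot be told apart either. A change in level is therefore not a measure of spliced mRNA alone.

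Per kilobase of exon, TRIM28 was the most abundant member in each group, with 156 CPM per kb at recovery, 87.3 CPM per kb under PdB and 128 CPM per kb in DMSO. The next levels per length were far lower. In DMSO they were 22.5 CPM per kb for TRIM8, 21.5 CPM per kb for TRIM25, 17.3 CPM per kb for TRIM14 and 14.1 CPM per kb for TRIM26. Under PdB the order below TRIM28 was TRIM8 with 32 CPM per kb, TRIM16L with 29.2 CPM per kb, TRIM27 with 24 CPM per kb and TRIM16 with 18.4 CPM per kb. At recovery TRIM26 with 23.2 CPM per kb and TRIM8 with 21.8 CPM per kb came next, followed by TRIM27 with 17.8 CPM per kb and TRIM11 with 17.6 CPM per kb. These orders were not tested.

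More TRIM genes were lower than higher under PdB, and more were higher than lower at recovery. Of the 48, 83.3% passed the test under PdB against DMSO, where 70.1% of all genes tested did: 14 rose (29.2%) and 26 fell (54.2%), against 32% and 38.2% of all genes. Of 14226 protein-coding genes tested, 79.1% passed, 32.5% as higher and 46.6% as lower. The median log2 change of the TRIM genes was -0.42, against -0.11 over all genes tested and -0.23 over protein-coding genes. Recovery against DMSO gave a call for 68.8%, where all genes gave 61.2%: 25 rose (52.1%) and 8 fell (16.7%), against 30.7% and 30.5% of all genes. Among protein-coding genes 71.6% passed, a larger share than among TRIM genes, with 32.7% higher and 38.9% lower. The TRIM median was 0.41, against 0.026 over all genes and -0.070 over protein-coding genes. Recovery against PdB gave a call for 81.2%, where all genes gave 66.1%: 29 rose (60.4%) and 10 fell (20.8%), against 34.6% and 31.5% of all genes, and the median was 0.73 against 0.062. For protein-coding genes 76.5% passed there, 40.4% as higher and 36.1% as lower, with a median of 0.086. The comparisons share libraries, so their counts are not independent of each other. Genes called RNF by symbol, another set of RING finger genes, gave 34 rises and 26 falls among 73 tested under PdB (median log2 change 0.29) and 43 rises and 14 falls at recovery against DMSO (median 0.43).

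**Figure D1:**
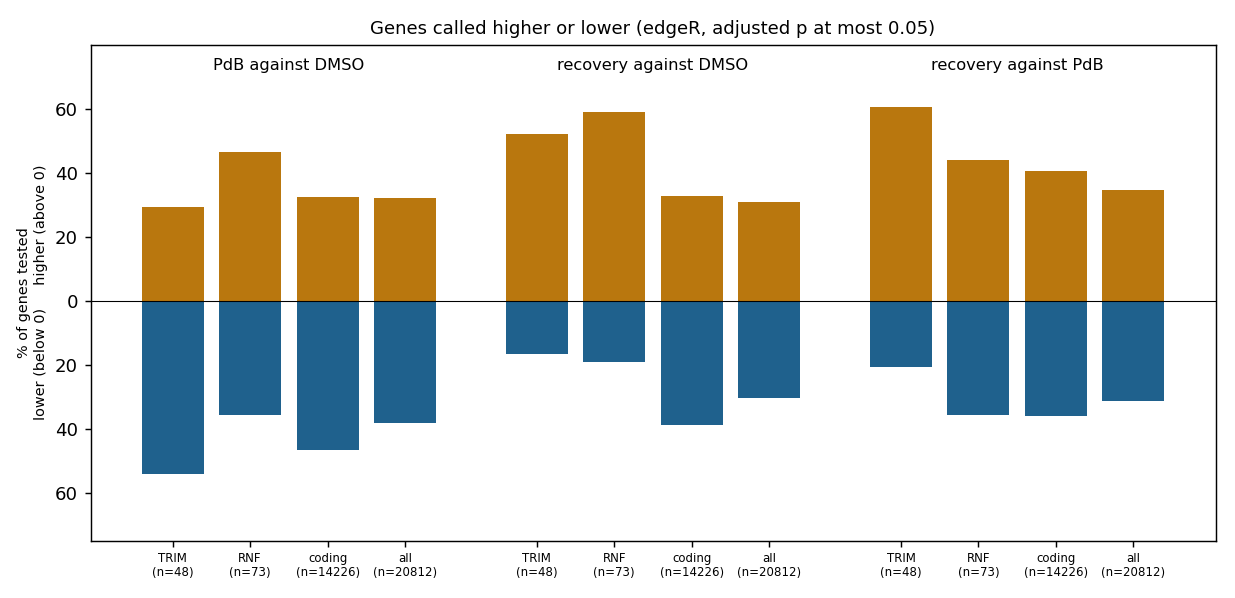
Percent of genes that passed the test as higher (above 0) or lower (below 0) in each comparison, for TRIM genes, RNF genes, protein-coding genes and all genes tested, with the number tested under each bar. The TRIM bars reach 54.2% lower under PdB and 52.1% higher at recovery against DMSO.

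The 3 libraries of one group lay entirely on one side of the other group's for 40 of the 48 TRIM genes under PdB against DMSO (83.3%), where this held for 72.5% of all genes. The share was 37 of 48 (77.1%) at recovery against DMSO, where it was 70.4% of all genes, and 39 of 48 (81.2%) at recovery against PdB, where it was 70.5%. Changes of at least 2-fold past the test were 8 rises and 18 falls under PdB, against 17.4% and 22.2% of all genes, 6 rises and 4 falls at recovery against DMSO, against 13.6% and 11.8%, and 18 rises and 3 falls at recovery against PdB, against 19.7% and 13.2%. Part of these values depends on the scale: the median log2 change of all genes under PdB was -0.014 with RLE factors, 0.039 with those of the upper quartile and -0.31 on library totals. The TRIM median under PdB was -0.32, -0.27 and -0.61 on those scales, below the median of all genes on each.

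**Figure D2:**
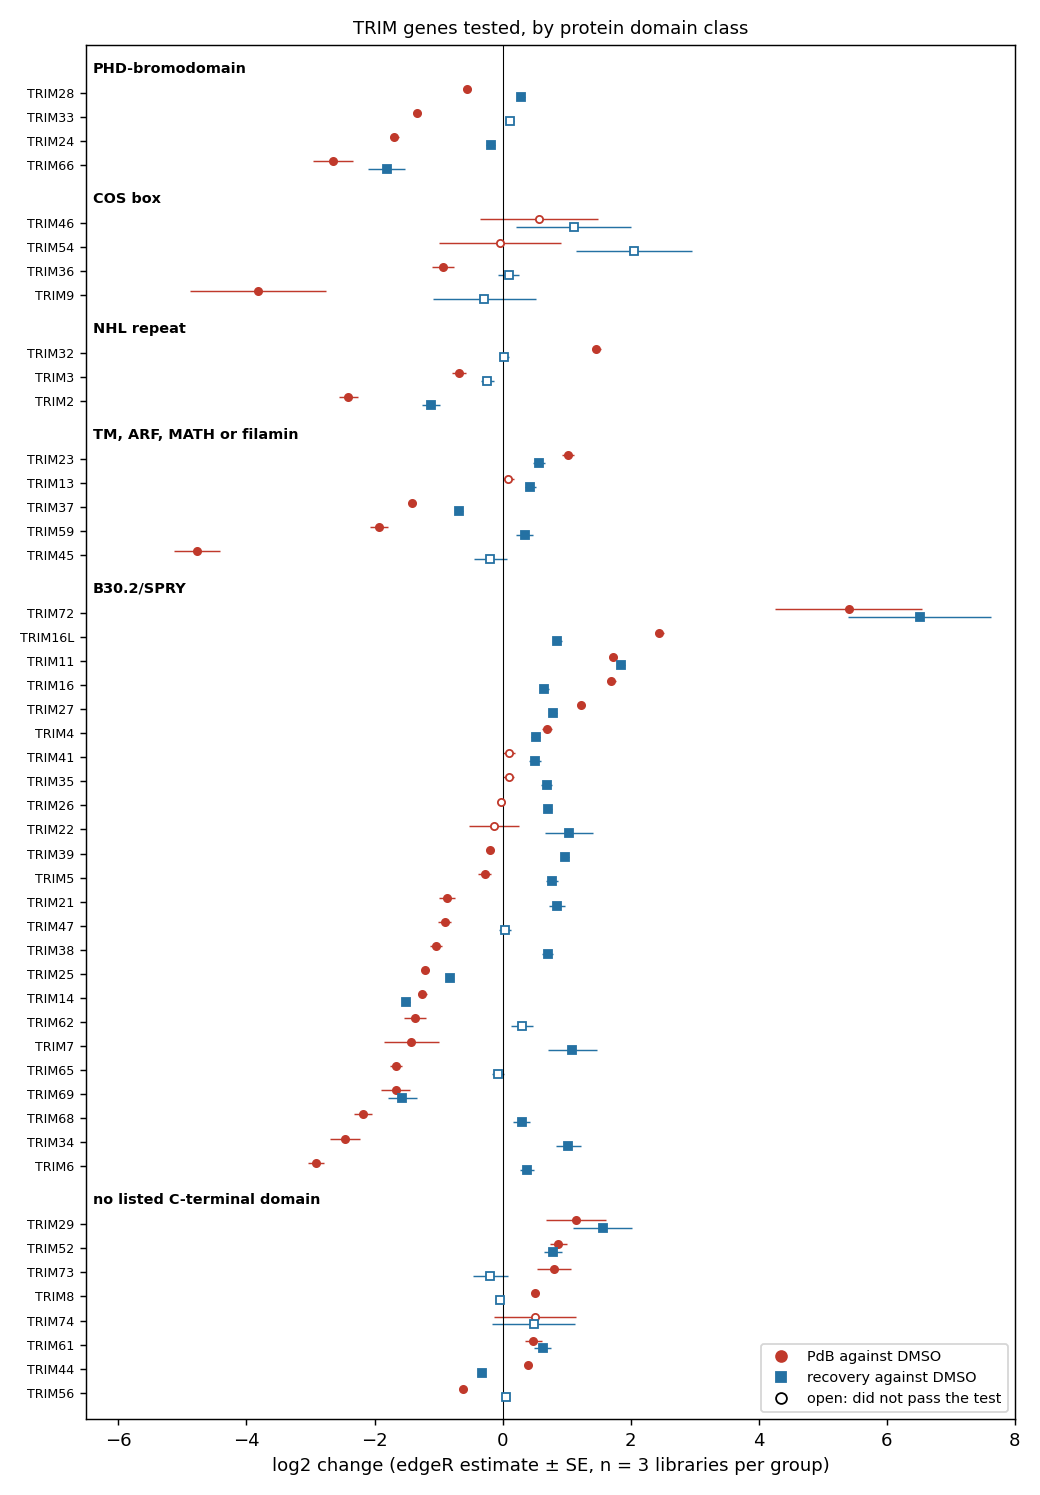
Log2 change of each of the 48 TRIM genes tested, under PdB (circles) and at recovery (squares) against DMSO, with SE, ordered by domain class; open symbols did not pass the test. The 4 PHD-bromodomain genes lie left of 0 under PdB, most B30.2/SPRY genes lie right of 0 at recovery, and the values of TRIM72 rest on 1 count over the 3 DMSO libraries.

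The 4 members with a PHD finger and a bromodomain all fell under PdB, where 38.2% of all genes fell. Their median log2 change was -1.51. Compared with DMSO, 1 was higher at recovery, 2 were lower and TRIM33 did not pass the test, and against PdB all 4 were higher. TRIM28, also called KAP1, the corepressor that KRAB zinc finger proteins bring to transposons (ENSG00000130726.12, chromosome 19, 58544091 to 58550722, plus strand), had 645, 633.5 and 612 CPM at recovery, 378, 368 and 309.6 CPM under PdB and 507, 529 and 511.5 CPM in DMSO. The 3 groups were apart, with recovery highest and PdB lowest. The log2 change was -0.55 ± 0.060, adjusted p = 1.4e-07 under PdB, 0.29 ± 0.059, adjusted p = 0.00035 at recovery against DMSO and 0.84 ± 0.060, adjusted p = 4.8e-10 at recovery against PdB.

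TRIM24, a histone reader and a ligase for p53 (ENSG00000122779.18, chromosome 7, 138460334 to 138589993, plus strand), had 46.96, 45.6 and 48.9 CPM at recovery, 16.5, 15.2 and 18.04 CPM under PdB and 54.5, 52.8 and 53.7 CPM in DMSO. All PdB libraries stood far under the others, and recovery stood a little under DMSO. It fell under PdB (-1.69 ± 0.072, adjusted p = 2.2e-13) and was lower at recovery than in DMSO (-0.19 ± 0.068, adjusted p = 0.024). That last call ended with RLE, upper-quartile or library-total scaling, a mean of at least 50 counts, a threshold of 0.01 or DESeq2, and without recovery replicate 1 or 2 or DMSO replicate 1, where its log2 change was -0.11 to -0.19. TRIM33, which acts on SMAD4 in TGF-beta signalling, had 70.9, 78.9 and 78.4 CPM at recovery, 27.2, 28.35 and 27.4 CPM under PdB and 71.5, 67.3 and 70.5 CPM in DMSO. Its PdB libraries were the lowest and its recovery and DMSO libraries overlapped. The fall under PdB was -1.34 ± 0.061, adjusted p = 6.9e-13, and the recovery value did not pass the test (0.12 ± 0.059, adjusted p = 0.077). It did pass with RLE, upper-quartile or library-total scaling, DESeq2, a mean of at least 50 counts, only the 6 libraries compared, and without recovery replicate 1, at 0.13 to 0.20.

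TRIM66, a testis-enriched reader of the same group, had 1.203, 1.16 and 1.36 CPM at recovery, 0.425, 0.533 and 1.13 CPM under PdB and 4.92, 4.28 and 3.855 CPM in DMSO. Both exposed groups, PdB and recovery, lay under every DMSO library. It fell under PdB (-2.65 ± 0.31, adjusted p = 3.7e-07) and was still lower at recovery (-1.80 ± 0.29, adjusted p = 2.6e-05). The rise at recovery against PdB (0.84 ± 0.31, adjusted p = 0.024) ended with only the 6 libraries compared, at a threshold of 0.01, and without recovery replicate 3 or PdB replicate 1 or 2. Of 7 partners of TRIM28 in silencing, 4 rose and 3 fell under PdB, where 32% and 38.2% of all genes did, from -0.62 for the remodeller SMARCAD1 to 0.36 for the heterochromatin protein CBX1. Recovery against DMSO gave 3 rises and 3 falls, where 30.7% and 30.5% of all genes did so, with ATF7IP, a partner of SETDB1, at 0.64 and the heterochromatin protein CBX5 at -0.74.

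A group of 10 members known for roles in innate immunity fell under PdB in 9 cases, and TRIM22 did not pass the test, where 38.2% of all genes fell; their median log2 change was -1.12. The list was written by hand with earlier results known and does not hold every member with such a role. Examples not on it are TRIM4, a ligase for RIG-I, and TRIM8, a regulator of cytokine signalling, which rose under PdB (0.69 and 0.51). The count of falls therefore describes this list and not all members with innate roles. The 9 falls include TRIM5, whose call depended on the setting, and TRIM6 and TRIM34, which may share reads. By recovery 6 of the 10 were higher than in DMSO, 2 were lower and 2 did not pass, with a median of 0.55. Of all genes, 30.7% were higher and 30.5% lower. Against PdB 9 rose and TRIM14 fell, where 34.6% and 31.5% of all genes did. Interferon acts on its target genes through a promoter element, the interferon-stimulated response element, searched for here as GAAA, any 2 bases and GAAA on both strands in the 250 bases before each start site. Promoters of 58 members were in the RefSeq table (GRCh38.p14), and 9 of their 77 start sites held the letters (11.7%), against 3.02% of 35116 start sites in the table. The 9 were TRIM2, TRIM5, TRIM14, TRIM16, TRIM26, TRIM34, TRIM44, TRIM64C and TRIM69. In the innate group TRIM5, TRIM14 and TRIM34 held it, and these sequences are shown, with the match in capitals on the strand given, because the 3 genes differed in their values after PdB.
TRIM5 (chr11:5685075-5685324, minus strand): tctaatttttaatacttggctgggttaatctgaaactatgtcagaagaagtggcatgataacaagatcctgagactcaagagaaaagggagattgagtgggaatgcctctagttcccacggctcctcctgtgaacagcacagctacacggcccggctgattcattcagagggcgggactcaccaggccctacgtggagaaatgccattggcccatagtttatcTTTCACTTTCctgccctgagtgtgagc
TRIM14 (chr9:98119223-98119472, minus strand): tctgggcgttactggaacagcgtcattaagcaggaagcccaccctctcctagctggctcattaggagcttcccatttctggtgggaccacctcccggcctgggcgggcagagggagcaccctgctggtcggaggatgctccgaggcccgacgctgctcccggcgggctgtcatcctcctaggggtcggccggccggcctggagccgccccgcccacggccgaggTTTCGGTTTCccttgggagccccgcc
TRIM34 (chr11:5624751-5625000, plus strand): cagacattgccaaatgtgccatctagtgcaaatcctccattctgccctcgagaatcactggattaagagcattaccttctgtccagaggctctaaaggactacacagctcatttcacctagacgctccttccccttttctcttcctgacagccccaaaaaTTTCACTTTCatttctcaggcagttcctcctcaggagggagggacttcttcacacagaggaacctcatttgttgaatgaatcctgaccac
In each the match is to the complement, beginning 27, 26 and 90 bases before the start site in TRIM5, TRIM14 and TRIM34. A match describes these letters and is no evidence of binding.

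Of the other 6 motifs searched, TTCNNNGAA stood in 15.6% of member start sites and 6.57% of all, CCAAT in 40.3% and 32%, TGACNNNGC in 7.79% and 10.9%, CACGTG in 3.9% and 6.34%, CCAAT, any 9 bases and CCACG in 1.3% and 0.074%, and TGACGTCA in 0% and 1.65%. The fifth of these contains CCAAT. The interferon element was chosen for display after these counts were seen. There was no entry for TRIM11, TRIM13, TRIM16L, TRIM22, TRIM24, TRIM27, TRIM28, TRIM29, TRIM35, TRIM4, TRIM43, TRIM43B, TRIM45, TRIM55, TRIM60 and TRIM8.

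TRIM5, which caps and disrupts incoming retroviral capsids (ENSG00000132256.20, chromosome 11, 5663557 to 5938619, minus strand), had 21.75, 21.9 and 19.8 CPM at recovery, 9.203, 10.6 and 10.8 CPM under PdB and 12.5, 13.05 and 11.6 CPM in DMSO. Recovery was the highest group, and PdB lay just under DMSO without overlap. It rose at recovery against DMSO (0.77 ± 0.096, adjusted p = 1.2e-06). The PdB value was -0.28 ± 0.098, adjusted p = 0.017, and that call ended with RLE or upper-quartile scaling, a mean of at least 50 counts, a threshold of 0.01, DESeq2 or only the 6 libraries compared, and without PdB replicate 1 (-0.21) or DMSO replicate 2 (-0.25). TRIM14, an adaptor of MAVS and cGAS signalling without a RING finger (ENSG00000106785.15, chromosome 9, 98069275 to 98119212, minus strand), had 33.5, 30.5 and 35.7 CPM at recovery, 39.96, 40.6 and 38.8 CPM under PdB and 94.1, 98.1 and 92.04 CPM in DMSO. Every library of the exposed groups was far under every DMSO library. The gene fell under PdB (-1.25 ± 0.064, adjusted p = 3.2e-12) and was lower at recovery (-1.51 ± 0.064, adjusted p = 8e-13). Recovery was also lower than PdB (-0.26 ± 0.064, adjusted p = 0.0016), but on library totals that log2 change was 0.0081.

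TRIM34, a partner of TRIM5 in capsid restriction (ENSG00000258659.7, chromosome 11, 5619764 to 5644398, plus strand), had 13.5, 10.03 and 11.7 CPM at recovery, 1.27, 0.551 and 1.33 CPM under PdB and 6.502, 5.502 and 5.33 CPM in DMSO. Recovery was the highest group and PdB the lowest, with no overlap. The log2 change was -2.46 ± 0.23, adjusted p = 1.9e-08 under PdB, 1.02 ± 0.20, adjusted p = 0.00018 at recovery against DMSO and 3.48 ± 0.23, adjusted p = 1.8e-10 at recovery against PdB. TRIM6, its neighbour, whose unanchored ubiquitin chains activate the kinase IKK-epsilon (ENSG00000121236.21, chromosome 11, 5596109 to 5612958, plus strand), had 33.8, 35.1 and 34.96 CPM at recovery, 4.34, 2.84 and 3.34 CPM under PdB and 24.5, 30.25 and 24.8 CPM in DMSO. Under PdB it fell (-2.92 ± 0.13, adjusted p = 3.5e-13), and it was above DMSO at recovery (0.38 ± 0.11, adjusted p = 0.005), an order of groups like that of TRIM34. The annotated read-through gene TRIM6-TRIM34 shares 83% of the exonic bases of TRIM34 and 29.3% of those of TRIM6, so reads of the 3 may be counted together. The read-through row had 31.4, 27.4 and 30.25 CPM at recovery, 3.47, 1.85 and 3.46 CPM under PdB and 18.7, 22.3 and 17.8 CPM in DMSO (log2 change -2.74 ± 0.17 under PdB and 0.60 ± 0.14 at recovery against DMSO).

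TRIM21, the cytosolic antibody receptor that sends coated viruses to the proteasome (ENSG00000132109.10, chromosome 11, 4384897 to 4393696, minus strand), had 15.5, 16.9 and 15.9 CPM at recovery, 5.203, 4.51 and 4.96 CPM under PdB and 8.96, 7.39 and 10.45 CPM in DMSO. Recovery lay above every DMSO library, and PdB lay under them. The gene fell under PdB (-0.87 ± 0.13, adjusted p = 9e-06) and rose at recovery against DMSO (0.85 ± 0.12, adjusted p = 9.2e-06). TRIM38, which limits Toll-like receptor and TNF signalling, showed the same order of groups, with 47.1 ± 0.863 CPM at recovery, 14.05 ± 1.72 CPM under PdB and 28.8 ± 2.31 CPM in DMSO and log2 changes of -1.04 ± 0.088 under PdB and 0.71 ± 0.085 at recovery against DMSO. TRIM22, an interferon-induced antiviral protein, was low and scattered, with 3.14, 1.403 and 2.18 CPM at recovery, 0.619, 1.58 and 0.769 CPM under PdB and 1.36, 0.745 and 1.155 CPM in DMSO. The PdB and DMSO libraries overlapped (-0.14 ± 0.39, adjusted p = 0.77). At recovery it rose against DMSO (1.04 ± 0.38, adjusted p = 0.023), a call that ended at a threshold of 0.01 and without recovery replicate 1 (0.72) or DMSO replicate 2 (0.83). Against PdB the libraries overlapped although the test passed (1.18 ± 0.38, adjusted p = 0.012), and this call ended at 0.01 and without recovery replicate 1 (0.86).

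TRIM25, the ligase that ubiquitinates the RNA sensor RIG-I (ENSG00000121060.19, chromosome 17, 56836387 to 56914080, minus strand), had 116, 117 and 114 CPM at recovery, 87.8, 83.8 and 93.5 CPM under PdB and 210.5, 202 and 199 CPM in DMSO. The 3 groups were apart, and recovery lay between PdB and DMSO. TRIM25 fell under PdB (-1.21 ± 0.051, adjusted p = 2.2e-13), was lower at recovery than in DMSO (-0.82 ± 0.050, adjusted p = 9.3e-11) and was higher at recovery than under PdB (0.39 ± 0.051, adjusted p = 2e-06). TRIM65, which ubiquitinates the sensor MDA5, had 35.7 ± 2.17 CPM at recovery, 11.9 ± 1.96 CPM under PdB and 37.6 ± 1.36 CPM in DMSO. TRIM56, a ligase of the STING route, had 112 ± 2.8 CPM at recovery, 70.04 ± 2.71 CPM under PdB and 108 ± 4.09 CPM in DMSO. Both fell under PdB (-1.66 ± 0.098 and -0.62 ± 0.053), and neither passed the test at recovery against DMSO (-0.075 ± 0.092 and 0.056 ± 0.052). On upper-quartile and library-total scales TRIM56 did pass there as higher, at 0.13 on both.

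The sensors and adaptors of the RIG-I and STING route were listed with these ligases. With PdB 2 of 8 rose and 6 fell (25% and 75%, against 32% and 38.2% of all genes; median log2 change -1.06), with the DNA sensor CGAS at 0.87 and the RNA sensor IFIH1, also called MDA5, at -1.55. Set against DMSO, 4 rose and 2 fell at recovery (50% and 25%, against 30.7% and 30.5% of all genes), with the adaptor STING1 at 1.17 and RIGI, the target of TRIM25, at -0.74. Set against PdB, 6 rose and 1 fell at recovery (75% and 12.5%, against 34.6% and 31.5% of all genes), with the kinase TBK1 at 2.20 and CGAS at -0.77.

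**Figure D3:**
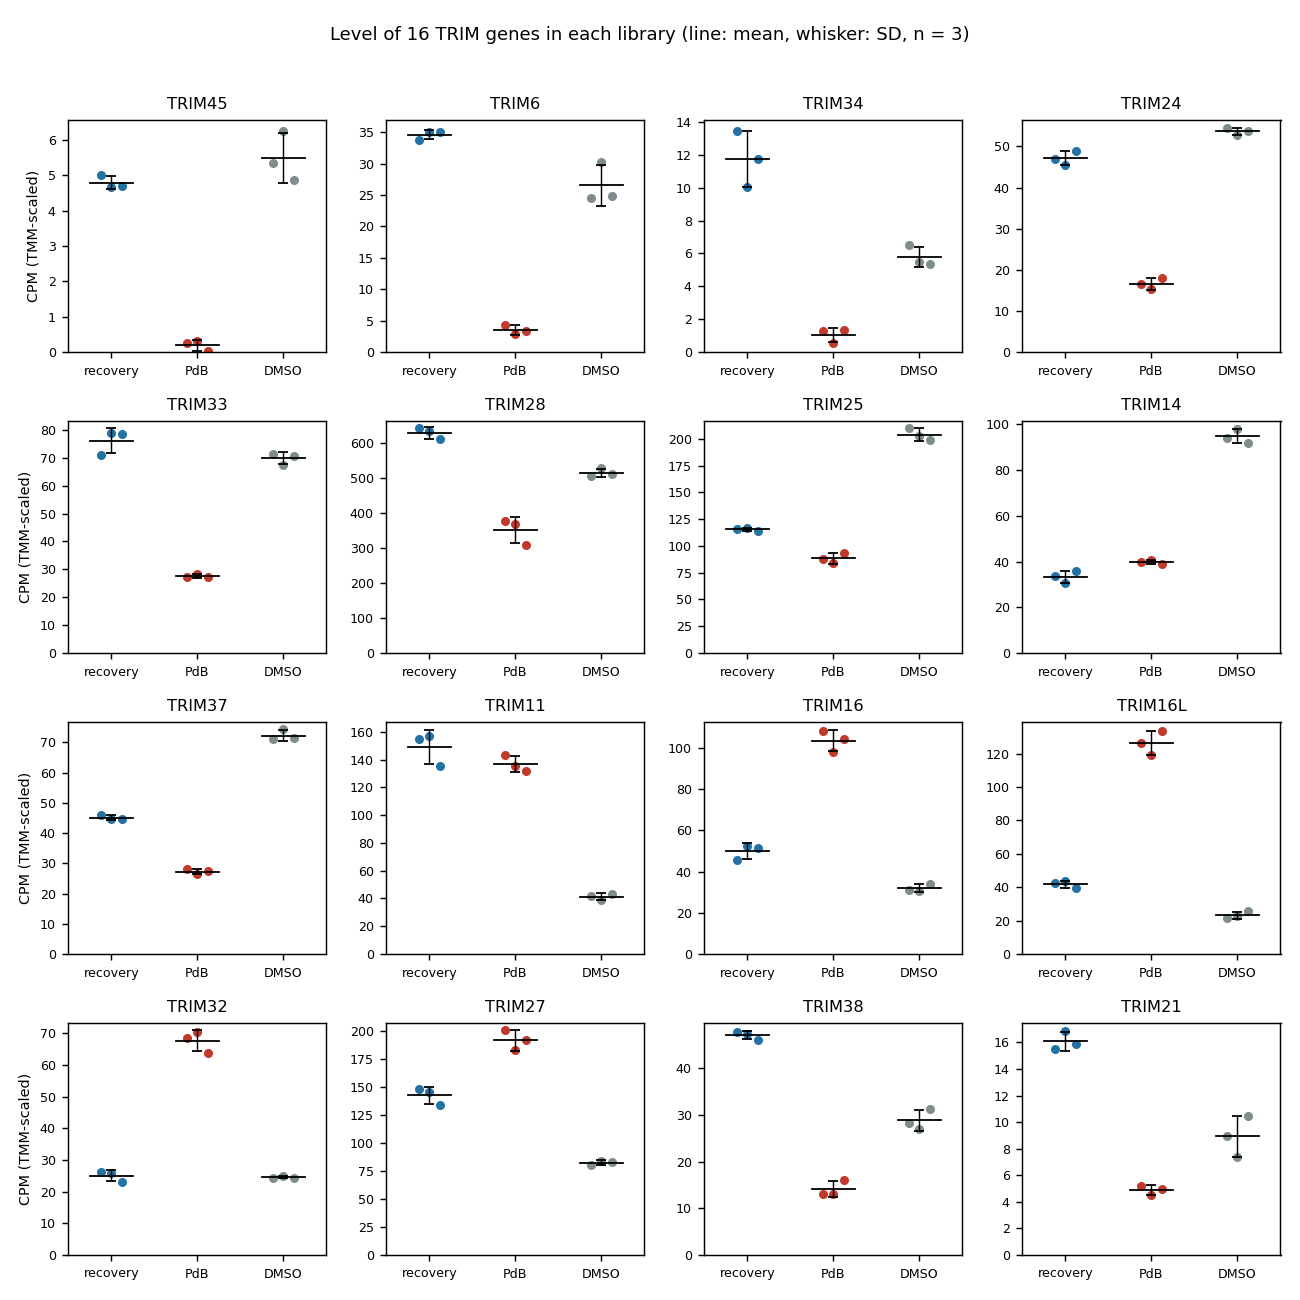
CPM of 16 TRIM genes in each library at recovery, under PdB and in DMSO, with the mean (line) and SD (whisker); axes start at 0. TRIM45, TRIM6 and TRIM34 come close to 0 under PdB, TRIM14, TRIM25 and TRIM37 stay under DMSO at recovery, and TRIM16, TRIM16L and TRIM32 peak under PdB.

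Some members rose under PdB. TRIM11, a ligase that clears misfolded nuclear proteins (ENSG00000154370.16, chromosome 1, 228393673 to 228406840, minus strand), had 155, 157 and 135 CPM at recovery, 143, 136 and 131.5 CPM under PdB and 42.01, 38.75 and 43.35 CPM in DMSO. All 6 libraries of the exposed groups were more than 3 times the DMSO level, and those groups overlapped. It rose under PdB (1.73 ± 0.065, adjusted p = 4.8e-14) and at recovery against DMSO (1.85 ± 0.065, adjusted p = 8.8e-14). Recovery and PdB did not differ past the test (0.12 ± 0.063, adjusted p = 0.093). They did on library totals (0.39), with no filter (0.14) and without recovery replicate 3 (0.20).

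TRIM16, which acts with galectin-3 at damaged lysosomes and lacks a RING finger (ENSG00000221926.13, chromosome 17, 15627960 to 15684311, minus strand), had 45.8, 52.7 and 51.6 CPM at recovery, 108, 98 and 105 CPM under PdB and 30.97, 30.5 and 34.2 CPM in DMSO. TRIM16L, a shorter relative (ENSG00000108448.22, chromosome 17, 18697998 to 18736118, plus strand), had 42.4, 43.5 and 39.4 CPM at recovery, 126.5, 119 and 133 CPM under PdB and 21.3, 22.6 and 25.4 CPM in DMSO. For both, PdB was highest, recovery was in between and DMSO was lowest, with no overlap. The log2 change under PdB was 1.70 ± 0.069, adjusted p = 1.2e-13 for TRIM16 and 2.45 ± 0.073, adjusted p = 1.9e-15 for TRIM16L. At recovery it was 0.65 ± 0.068, adjusted p = 1.4e-07 and 0.85 ± 0.071, adjusted p = 6.2e-09 against DMSO. Of the distinct 100-base stretches of TRIM16L transcripts, 18.5% also occur in TRIM16, and RefSeq lists TRIM16L as a transcribed pseudogene, so the split of reads between the 2 genes is uncertain. The summed level of TRIM16 and TRIM16L was 88.2, 96.2 and 91.0 CPM at recovery, 235, 217 and 238 CPM under PdB and 52.3, 53.0 and 59.6 CPM in DMSO. TRIM16 also shares 28.7% of its exonic bases with other genes, and 16.8% of its 100-base stretches with ENSG00000251537 on the same strand, so their reads may be counted together. The row of ENSG00000251537 had 32.5 ± 2.62 CPM at recovery, 65.4 ± 3.74 CPM under PdB and 21.8 ± 0.787 CPM in DMSO. Its log2 change was 1.58 ± 0.074 under PdB and 0.58 ± 0.074 at recovery against DMSO.

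TRIM32, an NHL-repeat ligase mutated in a limb-girdle muscular dystrophy (ENSG00000119401.11, chromosome 9, 116687302 to 116701300, plus strand), had 26.3, 25.8 and 23.1 CPM at recovery, 68.6, 70.3 and 63.9 CPM under PdB and 24.4, 24.85 and 24.3 CPM in DMSO. Only the PdB libraries stood apart. It rose under PdB (1.46 ± 0.069, adjusted p = 1.1e-12), and recovery did not differ from DMSO past the test (0.030 ± 0.070, adjusted p = 0.73). TRIM8, a regulator of p53 and cytokine signalling, had 221, 201 and 201 CPM at recovery, 319, 299 and 299 CPM under PdB and 211, 212 and 221 CPM in DMSO. Its order was alike, with PdB highest (0.51 ± 0.050, adjusted p = 3.5e-08) and recovery overlapping DMSO (-0.047 ± 0.050, adjusted p = 0.44). TRIM44, which carries a ubiquitin-binding zinc finger in place of a RING, had 135, 128.5 and 137 CPM at recovery, 219, 220.0 and 219 CPM under PdB and 166.5, 167 and 165.5 CPM in DMSO. Here recovery fell under DMSO: TRIM44 rose under PdB (0.40 ± 0.044, adjusted p = 2e-07) and was lower at recovery (-0.32 ± 0.044, adjusted p = 5.4e-06).

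TRIM27, first found as a partner in fusions of the kinase RET, rose under PdB (1.22 ± 0.054) and was still higher at recovery (0.79 ± 0.054), with 142 ± 7.66 CPM at recovery, 192 ± 9.2 CPM under PdB and 82.2 ± 2.16 CPM in DMSO. TRIM23, which carries an ARF GTPase domain, had 25.55 ± 1.48 CPM at recovery, 35 ± 2.84 CPM under PdB and 17.3 ± 1.92 CPM in DMSO. It rose in both comparisons with DMSO (1.02 ± 0.091 under PdB and 0.57 ± 0.091 at recovery). TRIM4, a ligase for RIG-I, had 31.5 ± 1.08 CPM at recovery, 35.6 ± 1.75 CPM under PdB and 22.02 ± 0.999 CPM in DMSO, and TRIM52, which has an enlarged acidic RING, had 14.5 ± 0.898 CPM at recovery, 15.4 ± 2.01 CPM under PdB and 8.41 ± 1.9 CPM in DMSO. Both rose under PdB (0.69 ± 0.072 and 0.87 ± 0.14) and were higher at recovery than in DMSO (0.52 ± 0.072 and 0.78 ± 0.14). TRIM61 rose in both as well (0.48 ± 0.14 and 0.63 ± 0.13), but its PdB call ended on library totals (0.28), and it shares 33.2% of its exonic bases with another annotated gene. Among the 8 members tested with no listed C-terminal domain, 6 rose and 1 fell under PdB (75% and 12.5%, against 32% and 38.2% of all genes), with a median log2 change of 0.51.

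By estimate, falls under PdB were largest for TRIM45, a filamin-domain member known to restrain MAP kinase signalling (ENSG00000134253.10, chromosome 1, 117111060 to 117122587, minus strand). It had 5.004, 4.67 and 4.68 CPM at recovery, 0.2655, 0.302 and 0.0192 CPM under PdB and 5.33, 6.25 and 4.87 CPM in DMSO. The PdB libraries were close to 0, and recovery overlapped DMSO. The log2 change was estimated at -4.77 under PdB and 4.57 at recovery against PdB. At recovery against DMSO it was -0.20 ± 0.26, adjusted p = 0.54. The PdB libraries held 15, 17 and 1 counts of TRIM45, the last of them under the floor of 3 counts. TRIM45 passed the filter on low counts through the other groups, so the size of its fall is uncertain. No test of TRIM45 is given under PdB or at recovery against PdB. It is among the falls and rises counted for the family in those comparisons. TRIM37, a ligase with a MATH domain that controls centrosome number (ENSG00000108395.14, chromosome 17, 58982638 to 59106921, minus strand), had 46.1, 44.5 and 44.8 CPM at recovery, 28, 26.3 and 27.3 CPM under PdB and 71.01, 74.4 and 71.5 CPM in DMSO. The 3 groups were apart, with recovery between the others. TRIM37 fell under PdB (-1.41 ± 0.059, adjusted p = 1.9e-13) and was lower at recovery than in DMSO (-0.68 ± 0.057, adjusted p = 7.2e-09).

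TRIM2, an NHL-repeat ligase for neurofilament light chain (ENSG00000109654.16, chromosome 4, 153152342 to 153339320, plus strand), had 10.8, 9.55 and 12.7 CPM at recovery, 3.504, 4.33 and 5.67 CPM under PdB and 24.6, 21.3 and 25.6 CPM in DMSO. Its groups did not overlap, and recovery was in between. TRIM2 fell under PdB (-2.41 ± 0.15, adjusted p = 6.4e-11) and was lower at recovery (-1.11 ± 0.14, adjusted p = 1.5e-06). TRIM3, its close relative and a brain ligase, had 18.1 ± 0.936 CPM at recovery, 13.3 ± 1.93 CPM under PdB and 21.3 ± 1.65 CPM in DMSO and fell under PdB (-0.68 ± 0.10); its recovery value did not pass the test (-0.24 ± 0.10, adjusted p = 0.053), but did with no filter, only the 6 libraries compared or the replicate block, and when any single PdB library or DMSO replicate 3 was left out. TRIM59, anchored in a membrane, had 20.5 ± 1.74 CPM at recovery, 4.24 ± 0.904 CPM under PdB and 16.15 ± 2.22 CPM in DMSO. The fall under PdB was -1.93 ± 0.14. Its higher level at recovery (0.34 ± 0.13, adjusted p = 0.029) did not pass at 0.01 or without recovery replicate 1 or 2 or DMSO replicate 2 or 3, and it shares 34.3% of its exonic bases with other genes.

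TRIM68, a coactivator of the androgen receptor (ENSG00000167333.13, chromosome 11, 4598672 to 4608259, minus strand), had 15.1, 14.8 and 15.15 CPM at recovery, 2.796, 2.45 and 2.805 CPM under PdB and 14.1, 12.9 and 9.75 CPM in DMSO. The PdB libraries were the lowest, and recovery lay just over DMSO. TRIM68 fell under PdB (-2.19 ± 0.14, adjusted p = 8.6e-11). The recovery call (0.30 ± 0.13, adjusted p = 0.049) ended with no filter, at 0.01, and when any single recovery library, DMSO replicate 2 or DMSO replicate 3 (0.15) was left out. TRIM69, a B30.2/SPRY ligase found at centrosomes (ENSG00000185880.13, chromosome 15, 44728988 to 44767829, plus strand), had 1.44, 1.39 and 1.91 CPM at recovery, 1.19, 1.901 and 1.345 CPM under PdB and 4.92, 4.42 and 4.765 CPM in DMSO. Both exposed groups were under DMSO and overlapped each other. TRIM69 fell under PdB (-1.67 ± 0.23, adjusted p = 3.1e-06) and was lower at recovery (-1.57 ± 0.23, adjusted p = 7.4e-06), with no call between recovery and PdB (0.099 ± 0.23, adjusted p = 0.73). TRIM62, TRIM47 and TRIM36 also fell under PdB (-1.37 ± 0.18, -0.91 ± 0.099 and -0.93 ± 0.17), and none passed the test at recovery against DMSO. Of TRIM47's exonic bases, 51.5% overlap a gene on the other strand.

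Some members were higher at recovery than in DMSO with little or no difference under PdB. TRIM39, a ligase of the MHC region (ENSG00000204599.14, chromosome 6, 30326479 to 30343729, plus strand), had 58.7, 58.45 and 61.15 CPM at recovery, 25.3, 27.8 and 26.1 CPM under PdB and 29.96, 29.25 and 31.6 CPM in DMSO. Recovery was about 2-fold above both other groups. It rose at recovery against DMSO (0.97 ± 0.065, adjusted p = 2.8e-10). The PdB value (-0.20 ± 0.066, adjusted p = 0.013) did not pass with RLE (-0.10) or upper-quartile scaling (-0.047), a mean of at least 50 counts, a threshold of 0.01, DESeq2 or only the 6 libraries compared. It shares 41.7% of its exonic bases with HCG18 and the read-through gene TRIM39-RPP21, which had 59.01 ± 1.57 CPM at recovery, 37.2 ± 3.33 CPM under PdB and 45.05 ± 1.66 CPM in DMSO. TRIM26, TRIM35, TRIM41 and TRIM13 gave no call under PdB (-0.020, 0.095, 0.100 and 0.092) and rose at recovery against DMSO (0.72 ± 0.058, 0.69 ± 0.084, 0.51 ± 0.093 and 0.43 ± 0.088). With upper-quartile factors all 4 passed as higher under PdB, as TRIM35, TRIM41 and TRIM13 did with a mean of at least 50 counts, and on library totals TRIM26 passed as lower. TRIM41 also passed as higher under PdB without PdB replicate 3 (0.23).

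TRIM29, a p53-binding protein of squamous epithelia without a RING finger (ENSG00000137699.17, chromosome 11, 120111275 to 120185529, minus strand), had 5.63, 4.29 and 7.29 CPM at recovery, 3.59, 1.67 and 7.67 CPM under PdB and 0.879, 1.3 and 3.62 CPM in DMSO. Its libraries scattered widely, and only recovery and DMSO did not overlap. It rose at recovery against DMSO (1.56 ± 0.46, adjusted p = 0.0067). The PdB value (1.15 ± 0.46, adjusted p = 0.035) lost its call in DESeq2 (adjusted p = 0.1), on library totals (0.96), at a threshold of 0.01, and without PdB replicate 3 (0.44), DMSO replicate 1 (0.79) or DMSO replicate 2 (0.92). Recovery was also higher than PdB without PdB replicate 3 (1.13). TRIM7, a glycogenin-binding ligase, was low, with 1.42 ± 0.115 CPM at recovery, 0.247 ± 0.124 CPM under PdB and 0.667 ± 0.0827 CPM in DMSO. The PdB libraries held 22, 9 and 10 counts of TRIM7, and the gene passed the filter on low counts through the other groups. Its log2 change under PdB was estimated at -1.42. No test of that fall is given, although it is among the falls counted. The rise of TRIM7 at recovery against DMSO (1.09 ± 0.39, adjusted p = 0.021) ended at 0.01. It also ended when recovery replicate 1 or 3 or DMSO replicate 2 or 3 was left out.

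Members of the muscle and neuronal branches were near the floor. TRIM72, a membrane repair protein of muscle, had 35, 50 and 38 counts at recovery, 16, 3 and 29 counts under PdB and 0, 1 and 0 counts in DMSO. The DMSO libraries lie under the floor of 3 counts, so no fold is given, and the gene passed the filter on low counts through the other groups alone, so no test of it is given either, although it is among the rises counted for the family. TRIM54, one of the MuRF proteins of the sarcomere, had 28, 35 and 78 counts at recovery, 0, 26 and 2 counts under PdB and 14, 5 and 16 counts in DMSO. Recovery lay above DMSO, but the value did not pass the test (2.05 ± 0.90, adjusted p = 0.058). It did pass in DESeq2 (adjusted p = 0.037), with no filter (0.0081), with only the 6 libraries compared (0.0028), and without any single PdB library. Recovery and PdB overlapped, and that value (2.09 ± 0.92, adjusted p = 0.053) passed in DESeq2, with no filter, on library totals, with the replicate block and without PdB replicate 2. Under PdB no call was made against DMSO, and without PdB replicate 2, where the other libraries hold 0 and 2 counts, it passed as lower. TRIM9, a brain ligase, had 10, 10 and 25 counts at recovery, 0, 3 and 0 counts under PdB and 15, 23 and 18 counts in DMSO. The PdB libraries were at or under the floor and had no part in its passing the filter, so no test of its fall under PdB is given, and it is among the falls counted. TRIM46, of the axon initial segment, had 0.334 ± 0.122 CPM at recovery, 0.2302 ± 0.222 CPM under PdB and 0.153 ± 0.0835 CPM in DMSO and passed no test. TRIM73, with 1.15 ± 0.209 CPM at recovery, 2.29 ± 0.402 CPM under PdB and 1.31 ± 0.0992 CPM in DMSO, rose under PdB (0.80 ± 0.26, adjusted p = 0.012), while TRIM74 passed no test; 78.5% of the 100-base stretches of TRIM74 also occur in TRIM73.

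By domain class, 6 of 24 B30.2/SPRY genes tested rose under PdB and 14 fell (25% and 58.3%, against 32% and 38.2% of all genes; median log2 change -0.58). Recovery against DMSO gave 18 rises and 3 falls (75% and 12.5%, against 30.7% and 30.5% of all genes; median 0.70). Of 4 COS box genes tested, 2 were counted as falls under PdB, TRIM36 and TRIM9, but the PdB libraries of TRIM9 were at or under the floor. None passed the test at recovery against DMSO, where TRIM54 was at 2.05 and TRIM46 at 1.11. Of 3 NHL genes, 1 rose and 2 fell under PdB. Of 5 genes with a membrane, ARF, MATH or filamin domain, 1 rose and 3 fell under PdB (median -1.41), and 3 rose and 1 fell at recovery against DMSO (median 0.34). The same shares of all genes apply to these smaller classes, and differences between them were not tested.

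Since PdB blocks splicing, members were also set out by intron number, counted in the transcript with the longest coding sequence. Among the 9 members with over 10 introns, 8 fell (88.9%) and TRIM16 rose under PdB, with a median log2 change of -1.41, where 64.5% of protein-coding genes of that bin fell. The 8 include TRIM9, whose PdB libraries were at or under the floor. Medians were -0.20 for 21 genes with 6 to 10 introns, 0.098 for 14 genes with 3 to 5 and 0.12 for 4 genes with at most 2. The same bins over protein-coding genes gave -0.69, -0.18, 0.15 and 0.42. Spearman's rho over the 48 TRIM genes was -0.27 under PdB and -0.11 at recovery against DMSO, given as a description across genes that share the same libraries. With introns counted in the longest transcript instead, rho was -0.23 and -0.007, and of 8 members with over 10 introns 6 fell (75%) and 1 rose under PdB, with a median of -1.37, where 65% of protein-coding genes of that bin fell. TRIM45, with the largest estimated fall, has 5 introns, and TRIM16L, with the largest rise past 100 counts, has 4. In the recovery comparison with DMSO the 21 genes with 6 to 10 introns had a median of 0.77, where protein-coding genes of that bin had -0.066.

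**Figure D4:**
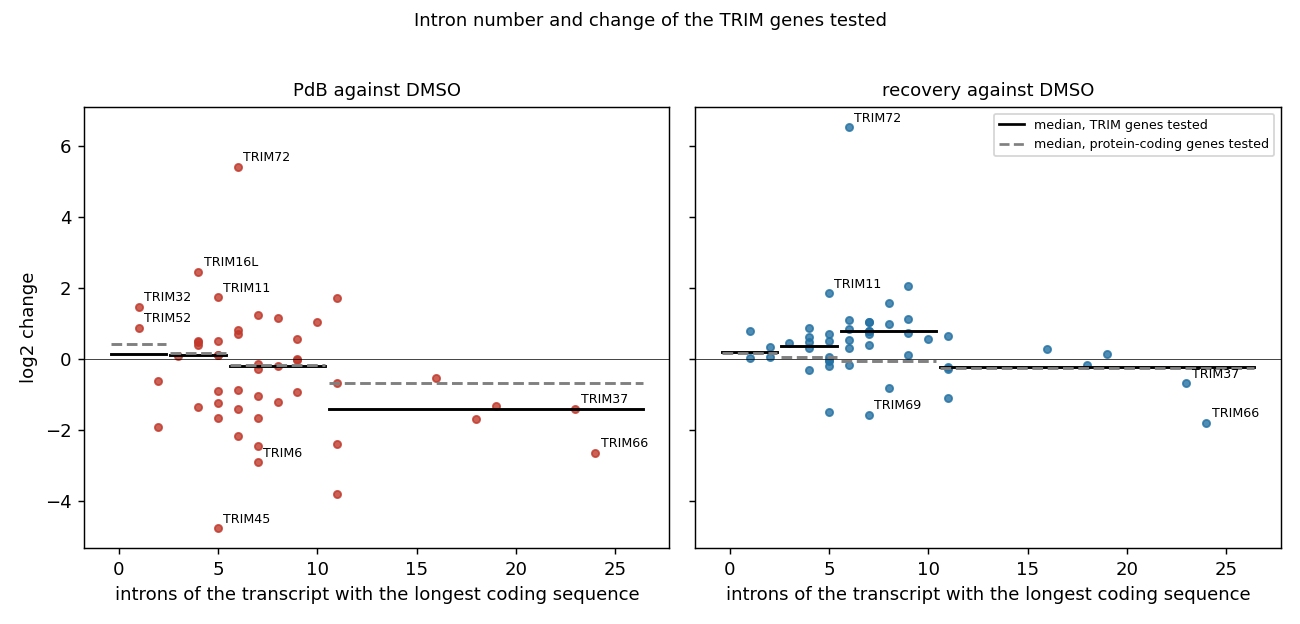
Log2 change of the 48 TRIM genes tested against intron number, under PdB (left) and at recovery (right) against DMSO, with medians per bin of 0 to 2, 3 to 5, 6 to 10 and more than 10 introns for TRIM genes (solid) and protein-coding genes (dashed). Members with over 10 introns lie mostly below 0 under PdB, at a median of -1.41 against -0.69 for protein-coding genes.

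Enzymes upstream of the TRIM ligases in the ubiquitin cascade were listed too. Of 20 genes for ubiquitin, E1 and E2 enzymes, 6 rose and 10 fell under PdB (30% and 50%, against 32% and 38.2% of all genes and 32.5% and 46.6% of protein-coding genes; median log2 change -0.060), from -1.61 for the E1 enzyme UBA6 to 1.40 for the E2 enzyme UBE2L3. Recovery against DMSO gave 7 rises and 8 falls (35% and 40%, against 30.7% and 30.5% of all genes), with the E2 enzymes UBE2D1 at 1.33 and UBE2D4 at -1.68. UBE2D1, an E2 that works with many RING ligases, had 40.05 ± 1.28 CPM at recovery, 6.12 ± 0.948 CPM under PdB and 15.9 ± 1.47 CPM in DMSO. Recovery against PdB gave 7 rises and 10 falls (35% and 50%, against 34.6% and 31.5% of all genes), with UBE2D1 at 2.71 and the ubiquitin gene UBB at -1.11.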

How the data were processed

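RNA was measured in 9 libraries of polyadenylated RNA from MDA-MB-231 cells. The authors deposited 1 table of whole-number read counts per gene, not normalised. Per the submitters' processing notes, the tools named are featureCounts 2.0.3, STAR 2.7.9a, fastp 0.23.2, DESeq2 1.30.0 and Picard, and the build is hg38. Not given in the sources used here are their roles and settings, strand use and the handling of multi-mapping reads. Counts of overlapping or near-identical genes are uncertain. Counts do not tell molecules from PCR copies, so floors cover counting error only.

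A symbol was found for 60696 of 60708 identifiers, and 58440 matched GENCODE 29 (GRCh38), which gave gene types, coordinates, exon lengths and introns. Counts were filtered with filterByExpr, scaled by TMM and tested two-sided by the quasi-likelihood method of edgeR 4.0.16 (R 4.3.3), with 1 fit to the 9 libraries and Benjamini-Hochberg adjusted p of at most 0.05 over 20812 genes. Each pair of groups was compared. The SE is the absolute log2 change over the root of F. Genes with values per library were 12 fixed members and, per comparison, the 4 largest rises and 4 largest falls past the test, averaging 100 counts or more, whose groups were apart, or, for other lists, the largest rise and fall. Levels and changes of other members are given as means, or as counts near the floor. The members, lists, classes and motifs were chosen with earlier results of these data known. Introns were first counted in the longest transcript. The rule was changed after the values were seen, because for members such as TRIM3 that transcript has far fewer introns than the coding one, and the correlation and the highest bin are given for both.

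Results were recomputed without a filter or with a mean of at least 50 counts, on library totals or with upper-quartile or RLE factors, at a threshold of 0.01, in DESeq2 1.42.0, with glmTreat against 2-fold, on the 6 libraries of a comparison, with a replicate block, and leaving out each library. Libraries of a group differed beyond counting noise (chi-square per degree of freedom 4.93 to 25.3). On simulated counts with 200 changed genes among 20812, 62.7% of 1.5-fold, 86.6% of 2-fold and 97% of 4-fold changes were recovered for PdB against DMSO, with 4.65% of the calls false. In the same way 65.7%, 85.1% and 98.5% (5.14% false) were recovered at recovery against DMSO, then 79.1%, 91% and 97% (5.32% false) at recovery against PdB. In the data 61.2% to 70.1% of genes were called, far more than were changed in the simulation, so these rates describe the simulated setting alone. Plots used Python 3.11.15 and matplotlib 3.10.9.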

Additional observations from a re-analysis of the deposited data

How the results depend on the processing

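Of the alternatives tried, only the test against a 2-fold change moved the counts of TRIM calls by more than 1.5 times, since it asks for larger changes: it left 6 rises and 16 falls under PdB against DMSO, 2 and 3 at recovery against DMSO, and 15 and 2 at recovery against PdB. With 1 library left out, rises and falls ranged from 13 to 14 and from 25 to 27 under PdB against DMSO, from 21 to 26 and from 7 to 9 at recovery against DMSO, and from 28 to 30 and from 9 to 10 at recovery against PdB. The labels do not say whether the replicate numbers pair the libraries. Deviations of same-numbered libraries from their group means correlated with r between -0.00323 and 0.048. Counting noise in low genes can hide a shared effect there, so pairing is not settled by this. With the replicate number as a block there were 14 rises and 26 falls under PdB against DMSO, 25 and 9 at recovery against DMSO, and 31 and 10 at recovery against PdB; TRIM3, TRIM54 and TRIM29 gained a call. Small values changed sign, and the cause was not tested. TRIM22 under PdB became 0.011 with upper-quartile factors, and with 1 library left out it ran from -0.66 (PdB replicate 2) to 0.11 (PdB replicate 1). At recovery against DMSO TRIM32 ran from -0.0032 (without recovery replicate 1) to 0.088 (without recovery replicate 3), and TRIM8 became 0.029 with upper-quartile factors and 0.024 on library totals. At recovery against PdB TRIM14 became 0.0081 on library totals, and TRIM69 ran from -0.054 (without recovery replicate 3) to 0.33 (without PdB replicate 2). Members with a mean under 100 counts, such as TRIM7, TRIM9, TRIM22, TRIM46, TRIM54, TRIM72, TRIM73 and TRIM74, carry wide errors at this depth.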

Other observations

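Relatives of the family that carry other names were measured too. Of 10, 7 were tested. Under PdB 4 rose and 3 fell against DMSO (57.1% and 42.9%, against 32% and 38.2% of all genes). At recovery 5 rose and 1 fell against DMSO (71.4% and 14.3%, against 30.7% and 30.5%), and 4 rose and 3 fell against PdB (57.1% and 42.9%, against 34.6% and 31.5%). MID1, a microtubule-binding ligase mutated in Opitz syndrome, had 36.3 ± 1.35 CPM at recovery, 175 ± 13.3 CPM under PdB and 75.4 ± 5.83 CPM in DMSO. It rose under PdB (1.22 ± 0.066, adjusted p = 8e-12) and was lower at recovery than in DMSO (-1.05 ± 0.068, adjusted p = 1.7e-10). Its paralog MID2 had 24.1 ± 0.472 CPM at recovery, 17.5 ± 0.971 CPM under PdB and 8.94 ± 0.896 CPM in DMSO and rose in both comparisons (0.97 ± 0.094 under PdB and 1.43 ± 0.093 at recovery). PML, which builds the nuclear bodies of that name and is also called TRIM19, had 87.75 ± 1.19 CPM at recovery, 56.5 ± 0.292 CPM under PdB and 75.75 ± 4.19 CPM in DMSO. PML fell under PdB (-0.42 ± 0.055, adjusted p = 1.4e-06) and was higher at recovery than in DMSO (0.21 ± 0.054, adjusted p = 0.0023). CMYA5, a large muscle protein with a B30.2/SPRY domain, had 3.865, 3.89 and 3.96 CPM at recovery, 50.5, 51.3 and 63.4 CPM under PdB and 0.234, 0.159 and 0.419 CPM in DMSO. All PdB libraries were far above the others, with log2 changes of 7.64 ± 0.18, adjusted p = 1.4e-16 under PdB and 3.82 ± 0.20, adjusted p = 1.5e-11 at recovery against DMSO. RNF207, a cardiac RING protein, fell most of the list under PdB (-2.27 ± 0.26), and TRIML2 rose most at recovery against PdB (3.23 ± 0.20).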
